A study of Mus musculus with 10 samples.

Results

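The TGF-beta ligands, their receptors and the proteins that keep the ligands latent in the matrix were followed in Achilles tendon after conditional loss of Mkx. The members were chosen by name, with earlier results of these data known: the 3 ligand genes Tgfb1, Tgfb2 and Tgfb3, the 3 receptor genes Tgfbr1, Tgfbr2 and Tgfbr3, and the 4 latent TGF-beta binding protein genes Ltbp1, Ltbp2, Ltbp3 and Ltbp4. They are 10 of the 32285 genes in the count table, and all 10 were among the 16017 genes that passed the filter on low counts. RNA was read from 10 libraries of 3 genotypes. Mkx-CreER/flox tendons (n = 3 libraries, numbered 1, 4 and 5) carried a tamoxifen-activated Cre at Mkx together with a floxed Mkx allele. Mkx-CreER/+ tendons (n = 3, numbered 1, 2 and 4) carried the Cre allele without the floxed one, and Mkx flox/+ tendons (n = 4, numbered 1 to 4) carried the floxed allele without Cre. Mice of every genotype, controls included, received tamoxifen at 20 mg/kg when 6 weeks old, and the tendons were taken 4 weeks later, at 10 weeks. The floxed control is called Mkx-flox in the description of the series. Its number of floxed copies, the deleted exons and any effect of the CreER allele on Mkx itself were not stated in the labels. Mkx encodes Mohawk, a homeobox factor of tendon cells. By its name the Cre is expressed from Mkx, and the labels do not state how the allele was built. Library numbers are those of the count table's columns.

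TGF-beta is made as a precursor whose propeptide stays wrapped around the mature ligand and keeps it inactive. Latent TGF-beta binding proteins attach covalently to that propeptide and anchor the complex to fibrillin and fibronectin in the matrix, and integrins or proteases later free the ligand. The free ligand binds the type II receptor, which phosphorylates the type I receptor, and this in turn phosphorylates SMAD2 and SMAD3. In tendon the pathway is known for the recruitment of tendon progenitors in the embryo and for its part in the response to load and in healing.

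The libraries held between 8680934 and 22656417 counts, and the members between 143 counts (Ltbp2) and 15905 counts (Tgfbr3) in a library. Mkx was 26.1, 32.4 and 30.5 CPM (counts relative to library size, scaled by the trimmed mean of M values) in Mkx-CreER/flox libraries 1, 4 and 5, 91.4, 93.8 and 93.5 CPM in Mkx-CreER/+ libraries 1, 2 and 4, and 187, 177, 121 and 153 CPM in Mkx flox/+ libraries 1 to 4, and it fell by 2.04 on the log2 scale against both controls (edgeR, adjusted p = 0.000149). The controls also differed in Mkx, which in Mkx-CreER/+ was 58.2% of the Mkx flox/+ level, without overlap (log2 fold change -0.78). edgeR did not call this difference (adjusted p = 0.489), and DESeq2 did (adjusted p = 0.0427). The 10 tenocyte markers were all detected and took 2.49% to 3.33% of counts in Mkx-CreER/flox, 4.19% to 5.43% in Mkx-CreER/+ and 6.15% to 11.6% in Mkx flox/+. The 25 skeletal muscle markers, also all detected, took 8.14% to 12.7%, 3.83% to 9.10% and 1.98% to 5.77% in the same order of genotypes, and the 12 macrophage markers took 0.0626% to 0.0905%, 0.115% to 0.272% and 0.166% to 0.267%. Among the tenocyte markers, Col1a1, Col1a2 and Fmod averaged 24276, 43412 and 10327 CPM in Mkx flox/+ and made up most of the share there. Against both controls edgeR called 5 of the 10 lower, namely these genes, Kera and Mkx itself, where 1.62% of all tested genes were called lower. Chodl was called higher (log2 fold change 1.92), and Scx (-0.38), Tnmd (-0.70), Thbs4 (-0.52) and Comp (-0.11) were not called. Mkx-CreER/flox library 1 stood apart in base composition. The median deviation of genes from their mean over all libraries differed by -0.95 log2 units between the quintiles of highest and lowest GC content, while in the other 9 libraries this difference lay between -0.13 and 0.36.

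Scaled for exon length (TPM, which allows levels of different genes to be compared), Tgfbr3 and Tgfb3 were the most abundant members of the family in tendon. Tgfbr3, which encodes betaglycan, the co-receptor that presents ligand to the type II receptor, averaged 433 ± 175 TPM over the 10 libraries (SD). Tgfb3, the ligand known for tendon and palate development in the embryo, averaged 294 ± 75.5 TPM. Ltbp4 followed with 130 ± 40.2 TPM, Tgfbr2 with 119 ± 22.2 TPM, Tgfbr1 with 83.0 ± 11.5 TPM, Ltbp1 with 79.8 ± 24.8 TPM and Ltbp3 with 73.0 ± 22.1 TPM. The lowest levels were those of Tgfb2 (66.2 ± 9.48 TPM), Tgfb1 (34.6 ± 12.1 TPM) and Ltbp2 (15.6 ± 6.11 TPM), and Ltbp2 lay at percentile 52.9 of the tested genes against 98.4 for Tgfbr3.

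Of the 9 neighbouring pairs in this order of TPM levels, only Tgfb3 and Ltbp4 had ranges over the 10 libraries that did not overlap. Tgfbr3 was above Tgfb3, Tgfb2 above Tgfb1 and Tgfb1 above Ltbp2 in all 10 libraries. In the middle of the order the neighbours were not apart: Tgfbr1 was above Ltbp1 in 5 of 10 libraries and Ltbp1 above Ltbp3 in 6. With the longest transcript in place of the union of exons as the length, Ltbp1 took rank 4, Tgfbr2 rank 5, Ltbp3 rank 6 and Tgfbr1 rank 7, so the middle of the order rests on the choice of length.

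**Figure D1:**
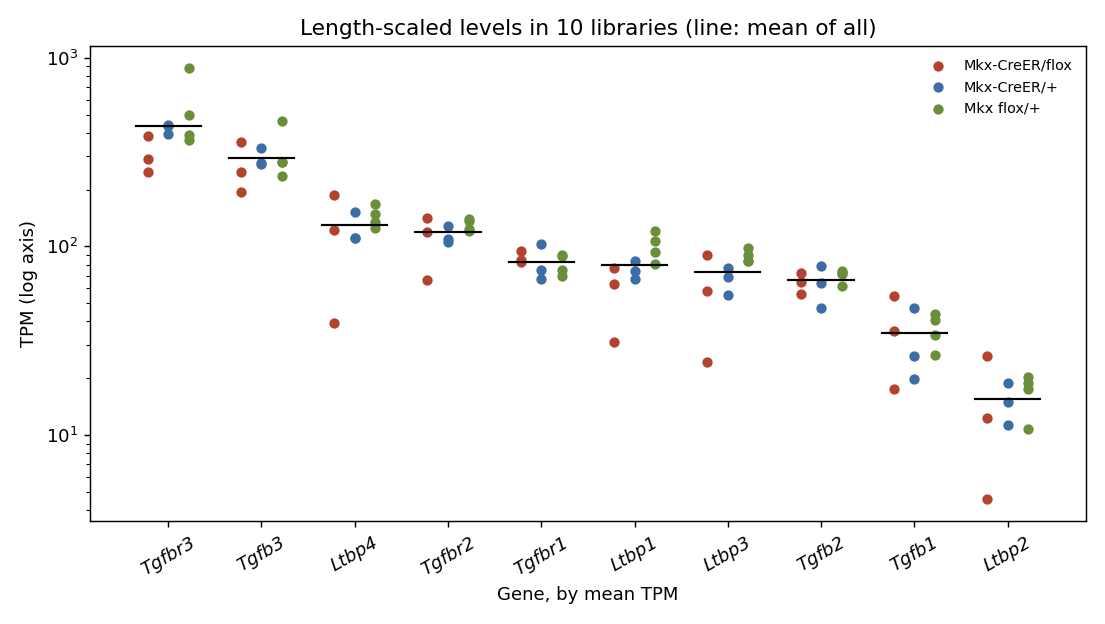
Level of each member in TPM (log axis) in the 10 libraries, points coloured by genotype with Mkx-CreER/flox on the left of each trio. Tgfbr3 and Tgfb3 lie above the other 8 genes, and Ltbp2 lies lowest at a mean of 15.6 TPM.

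Within each role, 1 member held most of the transcripts for ligands and for receptors. Tgfb3 made up 72.4% ± 1.80 of the summed ligand TPM in the 3 Mkx-CreER/flox libraries, 76.1% ± 3.93 in the 3 Mkx-CreER/+ libraries and 73.8% ± 6.12 in the 4 Mkx flox/+ libraries (SD). Tgfbr3 made up 61.1% ± 3.01, 68.3% ± 4.71 and 69.9% ± 7.69 of the summed receptor TPM in the same order of genotypes. The binding proteins were more evenly shared: Ltbp4 held 45.6%, 44.2% and 41.0% of their summed TPM, and Ltbp1 held 25.4%, 26.7% and 28.7%. Tgfb3, Tgfbr3 and Ltbp4 thus held the largest mean share of their role in each of the 3 genotypes, and no test of the shares was made.

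No ligand passed the test in any comparison between genotypes. Each comparison was tested in 1 edgeR quasi-likelihood model of all 10 libraries, with Benjamini-Hochberg adjustment over all 16017 genes, and a gene was called at an adjusted p under 0.05. The labels do not say that each library came from a separate mouse, so p-values measure the spread between these libraries. In whole tendon RNA, fewer cells of a type and less RNA per cell cannot be told apart.

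Tgfb1 (chr7:25687002-25705077, plus strand, mm10), the ligand best known for matrix deposition and immune control, was 30.5, 43.7 and 66.4 CPM in Mkx-CreER/flox, 35.7, 28.0 and 59.2 CPM in Mkx-CreER/+ and 54.4, 43.3, 61.3 and 37.6 CPM in Mkx flox/+. The ranges of the 3 genotypes overlapped, and the Mkx-CreER/flox libraries held both 1 of the lowest values and the highest. Against both controls weighted equally, Tgfb1 in Mkx-CreER/flox was 1.04-fold, with a 95% interval of 0.708 to 1.54 (edgeR adjusted p = 0.927). Tgfb2 (chr1:186622792-186705989, minus strand), a ligand needed with Tgfb3 for tendon formation in the mouse embryo, was 130, 79.0 and 101 CPM in Mkx-CreER/flox, 99.6, 76.8 and 114 CPM in Mkx-CreER/+ and 112, 90.0, 114 and 119 CPM in Mkx flox/+. Its values also overlapped across genotypes, and the fold against both controls was 1.004, with an interval of 0.770 to 1.31 (adjusted p = 0.991). Tgfb3 (chr12:86056745-86079041, minus strand) was 229, 203 and 292 CPM in Mkx-CreER/flox, 252, 261 and 282 CPM in Mkx-CreER/+ and 252, 397, 264 and 222 CPM in Mkx flox/+. Library 2 of Mkx flox/+ was the highest and the others overlapped. The fold of Tgfb3 against both controls was 0.880 (interval 0.660 to 1.17, adjusted p = 0.650).

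Over the 3 ligands the 95% intervals against both controls ran between 0.660-fold and 1.54-fold, and differences within them were not detectable with these libraries. Against Mkx-CreER/+ alone, the Mkx-CreER/flox folds were 1.14 for Tgfb1, 1.06 for Tgfb2 and 0.911 for Tgfb3, and against Mkx flox/+ alone they were 0.953, 0.947 and 0.850. The sign of the Tgfb1 and Tgfb2 differences changed with single libraries left out.

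**Figure D2:**
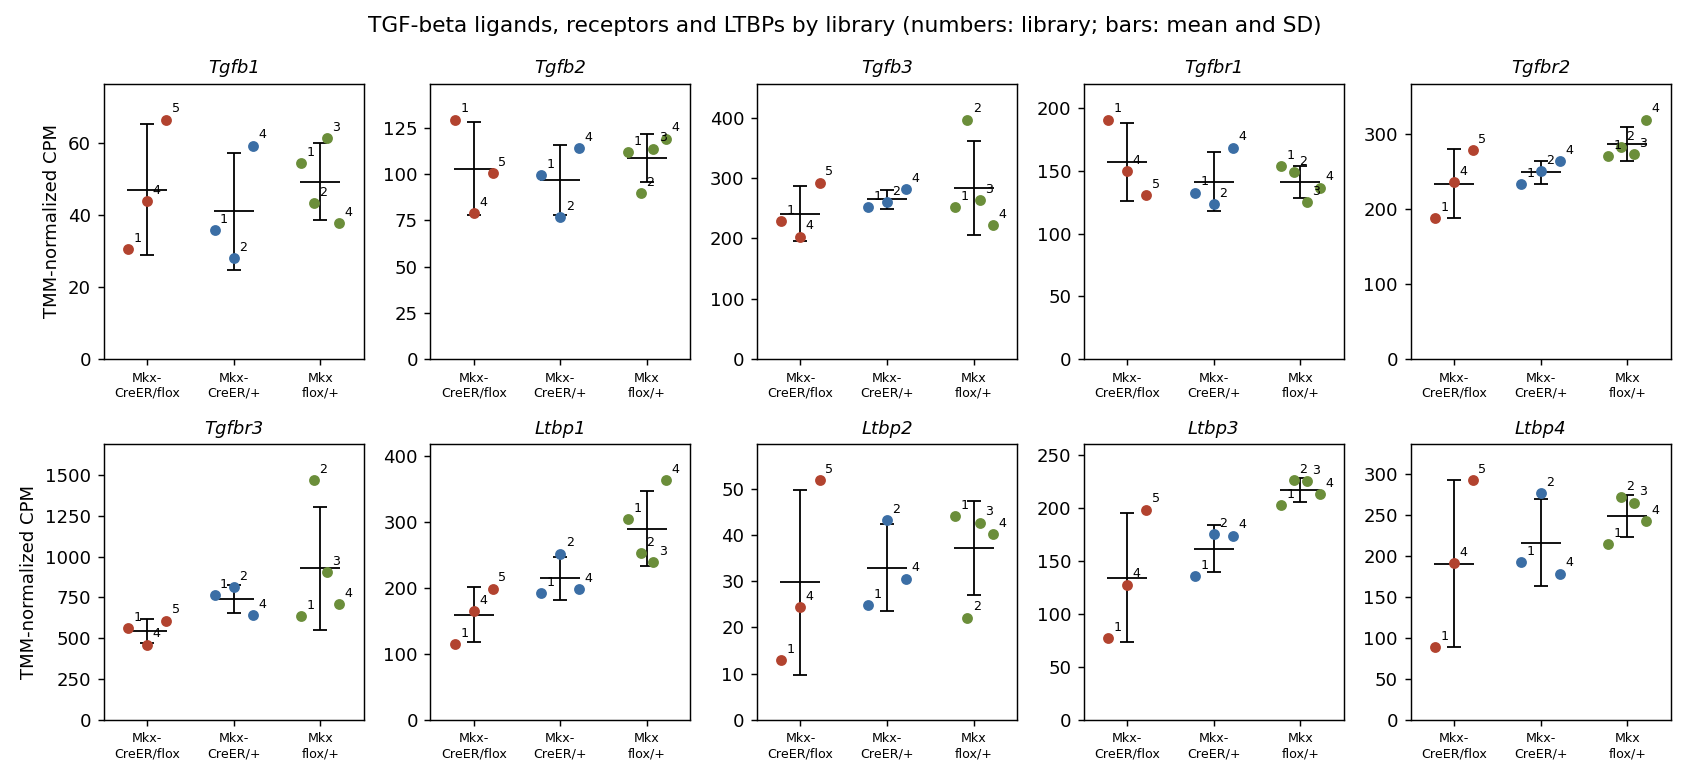
Level of each of the 10 members in CPM in every library, 1 panel per gene, with Mkx-CreER/flox left, Mkx-CreER/+ in the middle and Mkx flox/+ right; horizontal marks are means and error bars SD. In Tgfbr3 the 3 Mkx-CreER/flox libraries lie below all 7 controls, and in the Ltbp genes library 1 of Mkx-CreER/flox is the lowest point.

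Among the receptors, the signalling receptors were close to the controls, while the co-receptor gene Tgfbr3 had lower values in all 3 Mkx-CreER/flox libraries. Tgfbr1 (chr4:47353222-47414931, plus strand), the type I receptor kinase ALK5, was 191, 150 and 131 CPM in Mkx-CreER/flox, 133, 123 and 168 CPM in Mkx-CreER/+ and 154, 149, 125 and 137 CPM in Mkx flox/+. Library 1 of Mkx-CreER/flox was the highest of the 10 and the groups overlapped. The fold against both controls was 1.11 (interval 0.875 to 1.41, edgeR adjusted p = 0.652). Tgfbr2 (chr9:116084293-116175360, minus strand), the type II receptor that binds the ligand, was 188, 236 and 279 CPM in Mkx-CreER/flox, 233, 251 and 264 CPM in Mkx-CreER/+ and 271, 283, 273 and 319 CPM in Mkx flox/+. Its fold against both controls was 0.876 (interval 0.691 to 1.11, adjusted p = 0.550). The 3 Mkx-CreER/+ values all lay below the 4 Mkx flox/+ values, at 0.870-fold, which the model did not call (adjusted p = 0.999982), and an exact permutation test gave p = 0.0286, the smallest it can give for 3 against 4.

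Tgfbr3 (chr5:107106570-107289629, minus strand) was 563, 461 and 609 CPM in Mkx-CreER/flox, 767, 811 and 643 CPM in Mkx-CreER/+ and 636, 1468, 904 and 709 CPM in Mkx flox/+. All 3 Mkx-CreER/flox libraries were below all 7 controls, with the closest pair at 609 and 636 CPM, and Mkx flox/+ library 2 was far above the rest. The log2 fold change was -0.61 against both controls (SE 0.249, interval -1.14 to -0.08), which did not pass the edgeR threshold (adjusted p = 0.183, exact permutation p = 0.0417). Against Mkx-CreER/+ alone it was -0.44 (adjusted p = 0.616) and against Mkx flox/+ alone -0.77 (adjusted p = 0.102), and DESeq2 called the difference from Mkx flox/+ (adjusted p = 0.0376). Without Mkx flox/+ library 2, the difference from Mkx flox/+ was -0.46 on the log2 scale, the value of smallest size among the libraries left out.

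Ltbp1 was the only member that edgeR called in any comparison with all 10 libraries in the model, lower in Mkx-CreER/flox than in Mkx flox/+. LTBP1 is the classical binding protein of latent TGF-beta and links it to matrix fibrils. Ltbp1 (ENSMUSG00000001870, chr17:75005568-75392512, plus strand, mm10) was 115, 165 and 199 CPM in Mkx-CreER/flox, 192, 252 and 198 CPM in Mkx-CreER/+ and 304, 252, 238 and 363 CPM in Mkx flox/+. The Mkx-CreER/flox libraries all lay below the 4 Mkx flox/+ libraries, and library 5, the highest of the 3, lay between Mkx-CreER/+ values. Ltbp1 fell to 55.1% of the Mkx flox/+ level (log2 fold change -0.86, SE 0.220, interval -1.33 to -0.39, edgeR adjusted p = 0.0305), and the exact permutation test gave p = 0.0286, the smallest possible. Against Mkx-CreER/+ the log2 fold change was -0.43 (interval of the fold 0.529 to 1.05, adjusted p = 0.541), and against both controls it was -0.64 (SE 0.202, adjusted p = 0.0812). The controls themselves differed by -0.43 for Mkx-CreER/+ against Mkx flox/+, which was not called (unadjusted p = 0.0646).

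The call on Ltbp1 ended without Mkx-CreER/flox library 1 (-0.69, adjusted p = 0.0796), without Mkx-CreER/flox library 4 (-0.89, adjusted p = 0.0848), without Mkx flox/+ library 1 (-0.85, adjusted p = 0.0736) and without Mkx flox/+ library 4 (-0.74, adjusted p = 0.0678), each by edgeR. It also ended with the muscle score as a covariate (-0.92, adjusted p = 0.0854) and with only the compared genotypes in the model (-0.86, adjusted p = 0.0516), and it was kept with a GC correction (-0.76, adjusted p = 0.0262). The skeletal muscle share moved with the same genotypes, being higher in every Mkx-CreER/flox library than in every Mkx flox/+ library, and its part in the difference was not tested.

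Ltbp3 (chr19:5740904-5758532, plus strand), whose protein binds latent TGF-beta and is known from skeletal and dental growth, behaved much like Ltbp1 in level but was not called. Ltbp3 was 76.9, 127 and 198 CPM in Mkx-CreER/flox, 136, 175 and 174 CPM in Mkx-CreER/+ and 202, 226, 225 and 213 CPM in Mkx flox/+. Its Mkx-CreER/flox values spread widely, with library 5 only just below the lowest Mkx flox/+ library and above all of Mkx-CreER/+. The log2 fold change was -0.69 against Mkx flox/+ (SE 0.249, edgeR adjusted p = 0.109, exact permutation p = 0.0286, the smallest possible) and -0.48 against both controls (interval -0.96 to 0.01, adjusted p = 0.249). Without Mkx-CreER/flox library 5 it was called, at -1.10 against Mkx flox/+ (adjusted p = 0.00905) and -0.88 against both controls (adjusted p = 0.0242). The 3 Mkx-CreER/+ libraries were also all below the 4 Mkx flox/+ libraries (log2 fold change -0.42, unadjusted p = 0.108).

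Ltbp2 and Ltbp4 were not called, and their Mkx-CreER/flox libraries were spread more widely than either control. Ltbp2 (chr12:84783212-84876532, minus strand), which does not bind latent TGF-beta and is a fibrillin-associated matrix protein, was 12.9, 24.4 and 51.9 CPM in Mkx-CreER/flox, 24.9, 43.3 and 30.6 CPM in Mkx-CreER/+ and 44.1, 22.1, 42.7 and 40.2 CPM in Mkx flox/+. Ltbp4 (chr7:27305136-27337692, minus strand), known for elastic fibre assembly, was 88.4, 192 and 293 CPM in Mkx-CreER/flox, 193, 277 and 179 CPM in Mkx-CreER/+ and 215, 272, 265 and 243 CPM in Mkx flox/+. For both genes Mkx-CreER/flox library 1 was the lowest of the 10 libraries and library 5 was the highest. The folds against both controls were 0.849 for Ltbp2 (interval 0.497 to 1.45, edgeR adjusted p = 0.773) and 0.823 for Ltbp4 (interval 0.545 to 1.24, adjusted p = 0.625). Exons of Ltbp2 overlap the opposite-strand gene D030025P21Rik over 9.34% of their length and those of Tgfb3 overlap Gm48008 over 7.60%, so reads of such pairs may be shared if counting ignored strand, which no source used here states.

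The bases upstream of the Ltbp1 and Ltbp3 starts are shown because these are the binding protein genes whose Mkx-CreER/flox libraries all lay below Mkx flox/+. Each run is the 250 bases before a RefSeq start (GRCm38.p6), 5′ to 3′ on the strand of the gene, and capitals mark CAGAC or its reverse complement GTCTG, the letters of the classical SMAD-binding element. Ltbp1 has a pair of starts, for a long and a short form, at chr17:75005279-75005528 and chr17:75178531-75178780, and the gene counts do not separate these forms. The Ltbp3 window is chr19:5740650-5740899. All 3 lie on the plus strand.
Ltbp1 long form: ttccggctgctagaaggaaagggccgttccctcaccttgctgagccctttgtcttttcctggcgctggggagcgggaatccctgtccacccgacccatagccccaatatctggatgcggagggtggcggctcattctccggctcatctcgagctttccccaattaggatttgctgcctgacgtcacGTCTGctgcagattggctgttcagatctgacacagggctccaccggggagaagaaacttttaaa
Ltbp1 short form: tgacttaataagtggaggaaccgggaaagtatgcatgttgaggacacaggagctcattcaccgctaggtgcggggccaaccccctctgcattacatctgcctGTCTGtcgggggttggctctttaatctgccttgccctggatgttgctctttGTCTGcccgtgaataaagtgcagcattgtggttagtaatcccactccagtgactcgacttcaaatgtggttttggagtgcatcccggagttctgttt
Ltbp3: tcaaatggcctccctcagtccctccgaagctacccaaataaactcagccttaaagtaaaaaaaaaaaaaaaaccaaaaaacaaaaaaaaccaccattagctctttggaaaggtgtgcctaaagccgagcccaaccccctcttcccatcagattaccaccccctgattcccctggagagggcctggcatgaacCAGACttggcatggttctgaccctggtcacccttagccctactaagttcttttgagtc

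The element was present once upstream of the long Ltbp1 form, at 2 places upstream of the short form and once upstream of Ltbp3. RefSeq windows were at hand for 8 of the 10 members, with 12 windows in all, and not for Tgfb3 and Tgfbr3. CAGAC was found on either strand in 7 of the 12 windows, and in 42.2% of all 32851 promoter windows of the same length. The palindrome ACANNTGT, bound by the fly Iroquois homeodomain proteins to which Mohawk is related, was in 0 of the 12 windows and in 6.31% of all windows. A match is a description of letters and not a site.

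Counted over the family, 0 of 10 members were called against both controls, where 4.65% of all tested genes were called (1.62% lower). DESeq2 called 1 of the 10, Ltbp1 (adjusted p = 0.0294), against both controls. Against Mkx-CreER/+ 0 of 10 were called by edgeR or DESeq2, where 0.00624% of genes were, a single gene, Mkx itself. Against Mkx flox/+ 1 of 10 was called, where 7.27% of genes were (2.90% lower), and for Mkx-CreER/+ against Mkx flox/+ 0 of 10 were called by edgeR or DESeq2, where 0.00% of genes were by edgeR. At an unadjusted p under 0.05, the members lower in Mkx-CreER/flox numbered 2 of 10 against both controls (8.73% of all genes), 0 of 10 against Mkx-CreER/+ (4.98%) and 3 of 10 against Mkx flox/+ (10.3%), and 0 of 10 were lower in Mkx-CreER/+ than in Mkx flox/+ (2.66%). The share called against Mkx flox/+ was thus near the share of all genes in the same comparison.

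Most members nevertheless had negative values. The log2 fold change was below 0 for 7 of 10 members against both controls (48.5% of all genes), 7 of 10 against Mkx-CreER/+ (47.1%), 9 of 10 against Mkx flox/+ (49.2%) and 9 of 10 for Mkx-CreER/+ against Mkx flox/+ (49.7%). The medians over the members in that order of comparisons were -0.21, -0.14, -0.31 and -0.20, and the medians over all genes tested lay between 0.00 and 0.03. The mean CPM was lowest in Mkx-CreER/flox, intermediate in Mkx-CreER/+ and highest in Mkx flox/+ for 7 of 10 members (all 4 binding proteins, Tgfbr2, Tgfbr3 and Tgfb3), and for 25.1% of all tested genes. Members whose libraries lay below those of the other genotype without overlap numbered 1 of 10 against both controls (3.12% of all genes), 1 of 10 against Mkx-CreER/+ (6.14%), 3 of 10 against Mkx flox/+ (9.50%) and 2 of 10 for Mkx-CreER/+ against Mkx flox/+ (3.89%). These comparisons share libraries, so their counts are not separate evidence. Members also varied together, as Tgfbr2 and Ltbp3 did (r = 0.939 over the 10 libraries), so a count of members is not a count of separate observations.

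**Figure D3:**
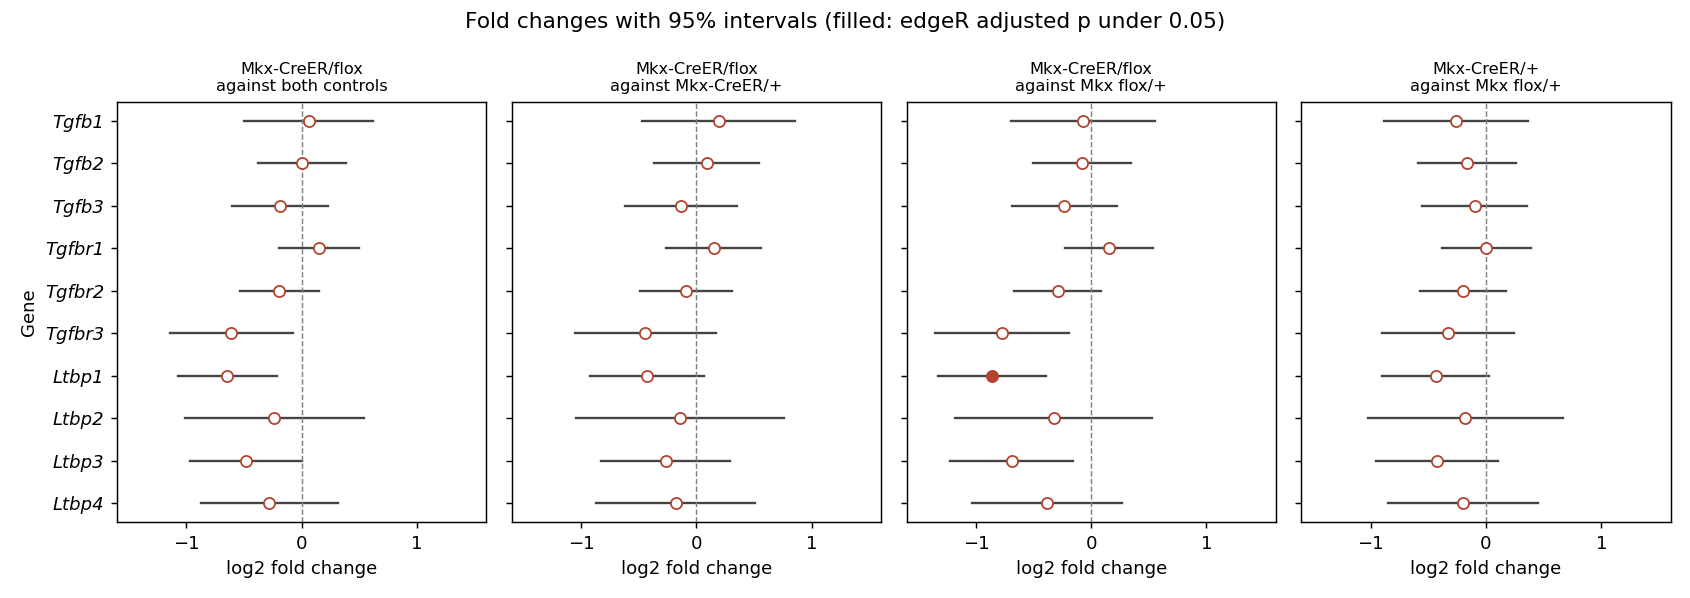
Log2 fold change of each member with its 95% interval in the 4 comparisons, against a line at 0. Only the interval of Ltbp1 for Mkx-CreER/flox against Mkx flox/+, at -0.86, belongs to a gene called by edgeR, while the ligands lie around 0.

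The 3 Mkx-CreER/flox libraries differed from each other by more than most members differed between genotypes. Between libraries 5 and 1 the log2 difference in CPM was 1.99 for Ltbp2, 1.73 for Ltbp4, 1.36 for Ltbp3, 1.12 for Tgfb1 and 0.79 for Ltbp1. It was 0.57 for Tgfbr2, 0.36 for Tgfb3 and 0.11 for Tgfbr3, and it was negative for Tgfb2 (-0.36) and Tgfbr1 (-0.55). The median was 0.68 for the members and 0.00 for all tested genes. Library 1 was the lowest and library 5 the highest of the 3 for 6 of the 10 members, and for 26.6% of tested genes.

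This spread ran with base composition, among other traits of these libraries. Over all tested genes, the median difference between libraries 5 and 1 was -0.50 in the quintile of lowest GC content, -0.26, -0.01 and 0.29 in the next 3 quintiles and 0.66 in the quintile of highest GC content. The members of highest GC content, Ltbp4 (62.2%), Ltbp2 (58.5%) and Ltbp3 (58.3%), were those with the widest differences, and Tgfbr1, with the lowest GC content (41.0%), had the most negative one. With the GC correction Tgfbr1 changed sign against both controls, to -0.06, and the differences of the other 9 members against both controls stayed uncalled by edgeR, as did that of Tgfbr1. From library 1 through 4 to 5 the muscle marker share also fell (12.7%, 9.23% and 8.14%). The share of mitochondrial genes fell too (8.85%, 5.32% and 3.96%), and was 2.33% to 4.78% in Mkx-CreER/+ and 1.92% to 2.31% in Mkx flox/+. The Schwann cell marker share rose (0.0411%, 0.144% and 0.246%), and was 0.0462% to 0.106% in Mkx-CreER/+ and 0.0487% to 0.0796% in Mkx flox/+. The part of each trait in the spread was not tested.

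**Figure D4:**
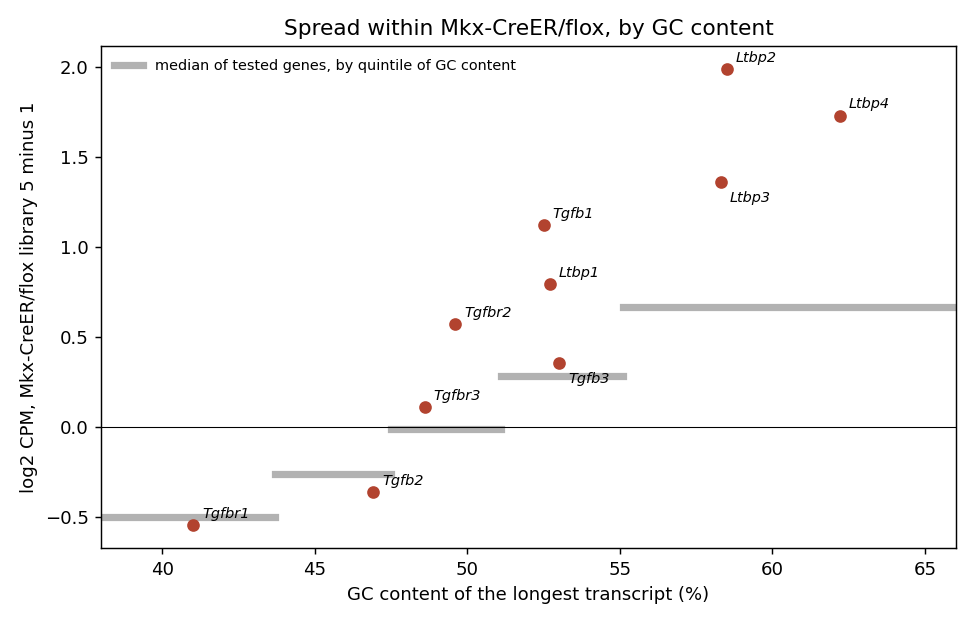
Log2 difference in CPM between Mkx-CreER/flox libraries 5 and 1 against the GC content of the longest transcript in percent, with the 10 members named over the median of each quintile of all tested genes. The quintiles climb to a median of 0.66 at high GC content, and Ltbp2, Ltbp3 and Ltbp4 lie above them.

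Across the 10 libraries the members of the receptor and binding protein classes varied together in part. The closest pair was Tgfbr2 and Ltbp3 (Pearson r = 0.939 on log2 CPM), followed by Ltbp3 and Ltbp4 (r = 0.898) and Tgfbr2 and Ltbp1 (r = 0.888). Without Mkx-CreER/flox library 1 these were 0.841, 0.670 and 0.769. Tgfb3 varied most closely with Tgfbr3 (r = 0.809), which rested on Mkx flox/+ library 2, the highest library for both genes (r = 0.479 over the other 9). Tgfbr1 ran opposite to Ltbp4 (r = -0.844, and -0.665 without Mkx-CreER/flox library 1). These are descriptions over 10 libraries that also differ in genotype, muscle share and base composition. Among 12401 named genes, the closest to Tgfb1 were Wwc2 (r = 0.906), Specc1 (r = 0.903) and Pcdhga12 (r = 0.903). The closest to Tgfb2 were Alg2 (r = 0.941), Prorsd1 (r = 0.940) and Rsrc1 (r = 0.865), and the closest to Tgfb3 included Tmc6 (r = 0.956, and 0.871 without Mkx flox/+ library 2) and Ino80e (r = 0.926). Such values are the largest of many correlations over 10 libraries, and the level that unrelated genes would reach was not computed. They do not show a link between these genes and the ligands.

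Around the family, the 10 pathway genes that edgeR called against both controls were 3 integrin subunits, 2 small proteoglycans and 5 genes of the target list. Of 18 genes that store or activate latent TGF-beta, 2 were higher and 1 was lower in Mkx-CreER/flox than in both controls, and 15 were not called, where 4.65% of all tested genes were called and 1.62% were called lower (median log2 fold change -0.22, against 0.02 for all tested genes). At an unadjusted p under 0.05, 8 of the 18 passed, where 20.7% of all tested genes did, and DESeq2 called 6. Itgb6, the epithelial integrin subunit that frees latent TGF-beta, rose: it was 110, 41.1 and 29.3 CPM in Mkx-CreER/flox, 13.9, 15.9 and 28.5 CPM in Mkx-CreER/+ and 14.2, 5.57, 16.0 and 19.2 CPM in Mkx flox/+ (log2 fold change 1.87, SE 0.414, edgeR adjusted p = 0.0326). Library 1 of Mkx-CreER/flox was the highest, and the closest values of the groups nearly met. Without that library the log2 fold change of Itgb6 was 1.08 (adjusted p = 0.166). Itgb8, whose integrin activates latent TGF-beta on cell surfaces, rose by 0.80 (SE 0.201, adjusted p = 0.0366), with 22.7, 33.9 and 43.3 CPM in Mkx-CreER/flox, 20.0, 16.3 and 23.6 CPM in Mkx-CreER/+ and 15.1 to 19.8 CPM in Mkx flox/+, and library 1 of Mkx-CreER/flox lay below the highest Mkx-CreER/+ library. Itgb5, which pairs with the integrin alpha v subunit, fell by 0.71 (SE 0.175, adjusted p = 0.0351), with 203, 216 and 298 CPM in Mkx-CreER/flox, 345, 359 and 303 CPM in Mkx-CreER/+ and 417 to 506 CPM in Mkx flox/+, without overlap.

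Of the 4 small proteoglycans that bind TGF-beta, 1 rose, 1 fell and 2 were not called, beside the 4.65% of all tested genes (median -0.70). The 2 that edgeR did not call were also negative, Dcn (-0.82, adjusted p = 0.113) and Bgn (-0.57, adjusted p = 0.157). All 4 passed an unadjusted p under 0.05, where 20.7% of all tested genes did, and DESeq2 called all 4. Fmod, fibromodulin, a collagen-binding proteoglycan of tendon, was 2853, 1735 and 3271 CPM in Mkx-CreER/flox, 5070, 6601 and 4173 CPM in Mkx-CreER/+ and 9178 to 11573 CPM in Mkx flox/+, and had a log2 fold change of -1.50 (SE 0.270, edgeR adjusted p = 0.0167). Its Mkx-CreER/flox libraries were all below every control. Aspn, asporin, known to bind TGF-beta1 and collagen, was 470, 223 and 203 CPM in Mkx-CreER/flox, 189, 142 and 171 CPM in Mkx-CreER/+ and 91.2 to 139 CPM in Mkx flox/+, and rose by 1.12 (SE 0.228, adjusted p = 0.0224). The Aspn values did not overlap with the controls, with library 1 of Mkx-CreER/flox well above the other 2. The log2 fold change of Aspn was 0.61 without that library (edgeR adjusted p = 0.0860) and 0.67 with the GC correction (adjusted p = 0.0439).

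Of 11 co-receptors and receptor regulators, 0 were called against both controls by edgeR, where 4.65% of all tested genes were (median -0.24), and the smallest p-values were those of Cd109, a cell-surface co-receptor of TGF-beta (log2 fold change -0.57, adjusted p = 0.0562), and Dab2, an endocytic adaptor (-0.49, adjusted p = 0.118). Of 15 SMADs and nuclear regulators, 0 were called by edgeR (median 0.14), with the smallest p-values in Tgif1 (-0.50, adjusted p = 0.235) and Ski (-0.34, adjusted p = 0.248), both nuclear repressors of SMAD activity. In lists of 11 and 15 genes, a count of 0 is near that share. At an unadjusted p under 0.05 the counts were 2 of 11 and 1 of 15, where 20.7% of all tested genes passed, and DESeq2 called 2 of the 11, Cd109 (adjusted p = 0.0151) and Dab2 (adjusted p = 0.0496), and 0 of the 15. Cd109 was called by edgeR against Mkx flox/+ alone (-0.74, adjusted p = 0.0233).

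Of 15 textbook TGF-beta target genes, 1 rose, 4 fell and 10 were not called against both controls (median -0.12), where 4.65% of all tested genes were called and 1.62% were called lower. At an unadjusted p under 0.05, 6 of the 15 passed, where 20.7% of all tested genes did, and DESeq2 called 6. Tgfbi, a secreted matrix protein named for its induction by TGF-beta, averaged 337 ± 40.2 CPM in Mkx-CreER/flox, 709 ± 195 CPM in Mkx-CreER/+ and 955 ± 79.8 CPM in Mkx flox/+ (SD), a log2 fold change of -1.29 (SE 0.210, edgeR adjusted p = 0.0138). Col1a1 and Col1a2, the chains of collagen I, fell by 1.74 (SE 0.357, adjusted p = 0.0224) and 1.47 (SE 0.331, adjusted p = 0.0282), and Tnc, tenascin C, fell by 0.9999 (SE 0.249, adjusted p = 0.0361). Postn, periostin, rose by 1.46 (SE 0.317, adjusted p = 0.0289), with 309 ± 72.9 CPM in Mkx-CreER/flox, 144 ± 43.0 CPM in Mkx-CreER/+ and 87.6 ± 46.2 CPM in Mkx flox/+. Col1a1, Col1a2 and Fmod are also among the 10 tenocyte markers, as is Mkx itself. Of these markers 5 were called lower (the genes just named and Kera) and 1 higher, beside the same shares of all tested genes.

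Each of the 10 called pathway genes lost its call when at least 1 library was left out. Tgfbi and Fmod lost it only without Mkx-CreER/flox library 4 (edgeR adjusted p = 0.0538 and 0.0593). Aspn lost it without Mkx-CreER/flox library 1 and without Mkx-CreER/+ library 1 or 2. Col1a1 and Postn lost it without Mkx-CreER/flox library 1 or 4 and without Mkx-CreER/+ library 1 or 2, and Postn also without Mkx flox/+ library 1. Itgb6 lost it without any of the same 5 libraries. Col1a2 lost it without Mkx-CreER/flox library 4, without Mkx-CreER/+ library 1 or 2 and without Mkx flox/+ library 1. Tnc lost it without any of the 5 libraries named for Postn or Mkx flox/+ library 3. Itgb5 lost it without any of those 6 libraries or Mkx flox/+ library 2, and Itgb8 lost it without Mkx-CreER/flox library 4 or 5, without Mkx-CreER/+ library 1 or 2 and without any of the 4 Mkx flox/+ libraries. With the muscle score as a covariate 8 of the 10 lost their calls, all but Tgfbi and Fmod, while their log2 fold changes with the covariate were -0.71 for Itgb5, 0.88 for Itgb8, -1.69 for Col1a1, -1.49 for Col1a2, -1.16 for Tnc, 1.40 for Postn, 0.95 for Aspn and 1.46 for Itgb6. Without a filter on low counts Itgb6 and Postn lost theirs, and with the 7 controls as 1 group Col1a1 (-2.07, adjusted p = 0.0539) and Col1a2 (-1.70, adjusted p = 0.0574) did, at larger fold changes. The GC correction ended the calls of Itgb5 (adjusted p = 0.0505), Itgb8 (0.129) and Postn (0.0852) and gave 1 to Cd109 (0.0246).

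Against the single controls, 0 genes of the 5 pathway lists were called by edgeR for Mkx-CreER/flox against Mkx-CreER/+ or for Mkx-CreER/+ against Mkx flox/+. At an unadjusted p under 0.05 the lists, in the order above, held 4, 2, 1, 0 and 5 genes in the first of these comparisons (DESeq2 called 1, 1, 0, 0 and 1), where 10.7% of all tested genes passed, and 2, 3, 0, 1 and 4 genes in the second (DESeq2 called 0, 1, 0, 0 and 2), where 4.98% passed. Against Mkx flox/+, where 7.27% of all tested genes were called and 2.90% were called lower, the calls were 2 higher and 3 lower among the 18 storage and activation genes, 1 higher and 2 lower among the 4 proteoglycans, 1 lower among the 11 co-receptors and regulators, 0 among the 15 SMADs and nuclear regulators, and 1 higher and 4 lower among the 15 targets, by edgeR. Of those SMADs and nuclear regulators, 3 of 15 passed an unadjusted p under 0.05, where 23.0% of all tested genes did, and DESeq2 called 1. Of the 12 macrophage markers, edgeR called 11 lower in Mkx-CreER/flox than in both controls, where 1.62% of all tested genes were called lower. Against Mkx flox/+ alone it also called 11 lower (2.90% of all tested genes). Against Mkx-CreER/+ alone edgeR called 0 and DESeq2 11, at a median log2 fold change of -1.27. Between the controls 0 were called, at a median of -0.0012. The part of other cell types in the matrix gene differences was not tested.

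**Figure D5:**
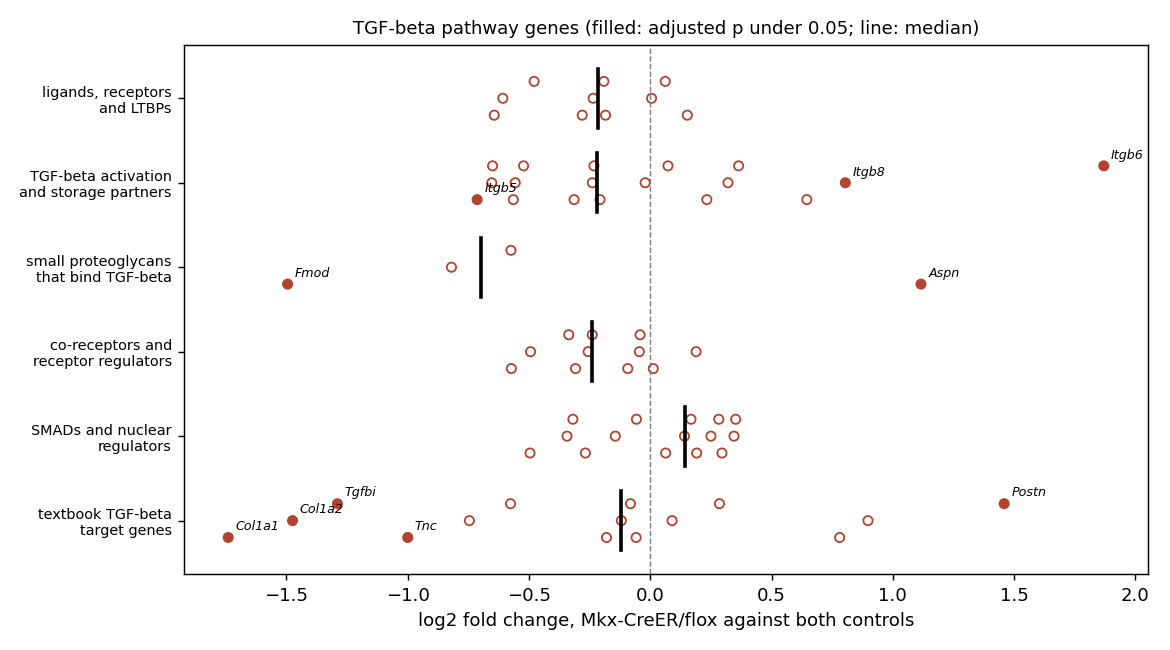
Log2 fold change of every gene of the 5 pathway lists and of the 10 members for Mkx-CreER/flox against both controls, 1 row per list, filled points for genes called at an adjusted p under 0.05. Filled points occur in the storage and activation list, the proteoglycans and the targets, and none among the members, the co-receptors or the SMADs.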

How the data were processed

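Achilles tendon RNA of 3 Mkx genotypes was sequenced as 10 total RNA libraries (RamDA-seq, a random-primed method for small inputs). The deposited table holds whole-number counts per Ensembl gene, made by the authors with fastp and STAR on mm10, per the submitters' processing notes. Not given in the sources used here are tool versions, the counter, its annotation and strand setting, and how multi-mapping reads were handled. Columns of Mkx flox/+ were assigned to samples by number. Columns of the other genotypes were matched by genotype only, because their numbers differ from the labels' replicate numbers. Symbols and positions came from GENCODE vM21 (32235 of 32285 identifiers carried a symbol).

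Counts were tested with edgeR 4.0.16 in R 4.3.3: filterByExpr by genotype (minimum count 10), TMM scaling, and 1 robust quasi-likelihood model of all 10 libraries with a term per genotype. The 4 comparisons were Mkx-CreER/flox set against both controls (weighted equally), Mkx-CreER/flox set against either control, and the pair of controls, Mkx-CreER/+ over Mkx flox/+. Calls were made at a Benjamini-Hochberg adjusted p under 0.05 over 16017 genes. CPM are TMM-scaled, TPM used the union of exons, and log2 CPM a prior count of 2. Exact permutation tests were two-sided, on mean log2 CPM. The method was tested on simulated data. Totals of 8680934 to 22656417 counts put 3 counts at 0.132 to 0.346 CPM, a floor that covers counting error only. Squared differences between libraries of 1 genotype were 21.7 to 108 times those of counting error (chi-square per degree of freedom over all genes).

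The members and the gene lists were chosen with earlier results of these data known. Named genes are the 10 members, Mkx, the called genes of each pathway list (or the 2 of smallest p), and the 3 genes closest to each ligand. Predicted or numbered gene models were left out of that last search, and 1 gene it found is not reported here. The tenocyte, skeletal muscle, macrophage, endothelial, mural, Schwann cell, adipocyte and erythroid marker lists were summed per library. For the lists whose calls are not given in the results, the number of genes called higher and lower in Mkx-CreER/flox than in both controls was 1 and 0 of 8 endothelial, 2 and 0 of 8 mural, 1 and 0 of 8 Schwann cell, 0 and 0 of 6 adipocyte, and 0 and 0 of 5 erythroid markers. Of the 25 skeletal muscle markers 6 were higher and 0 lower. Alternatives were DESeq2 1.42.0, RLE scaling, other filters, removal of muscle, mitochondrial and erythroid genes, a muscle covariate, fewer genotypes in the model, each library left out, the longest transcript as length and, chosen after the data were seen, a GC correction. Promoter windows came from RefSeq (GRCm38.p6).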

Additional observations from a re-analysis of the deposited data

How the results depend on the processing

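Under edgeR the number of genes called for Mkx-CreER/flox against both controls, 744, was 1447 with DESeq2, 111 with the muscle covariate and 64 to 1114 with single libraries left out. Against Mkx-CreER/+ it was 1, with 123 by DESeq2, 9 without a filter, 0 with only the genotypes compared and 0 to 117 with libraries left out. Against Mkx flox/+ it was 1165, with 1830 by DESeq2, 203 with the muscle covariate and 455 to 1585 with libraries left out. For Mkx-CreER/+ against Mkx flox/+ it was 0, with 34 by DESeq2, 798 at an unadjusted p under 0.05, and 0 each time a library was left out. The number of members called was 0 against both controls, with 1 by DESeq2 and 0 to 2 with libraries left out. Against Mkx flox/+ it was 1, with 2 by DESeq2, 0 with the muscle covariate, 0 with only the genotypes compared and 0 to 2 with libraries left out. In the other comparisons it was 0 in every setting run. The Mkx difference from Mkx-CreER/+ was not called with only the genotypes compared (-1.66, adjusted p = 0.0575) or without Mkx-CreER/flox library 4 (-1.71, adjusted p = 0.0549). With the longest transcript as length, Tgfb1 averaged 52.5 TPM and Tgfbr2 93.2 TPM.

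Some small differences changed sign, none of them called. Against both controls, Tgfb2 was -0.0043 without a filter, -0.0105 with muscle, mitochondrial and erythroid genes taken out, -0.0518 with the muscle covariate, -0.00855 with the 7 controls as 1 group and -0.0398 with the GC correction. With the GC correction Tgfbr1 was -0.0643 against both controls, -0.0303 against Mkx-CreER/+ and -0.0983 against Mkx flox/+, and -0.0680 for Mkx-CreER/+ against Mkx flox/+. Tgfb1 against Mkx flox/+ was 0.168 with the muscle covariate and 0.0156 with the GC correction, and Tgfb3 for Mkx-CreER/+ against Mkx flox/+ was 0.000635 with the muscle covariate. With libraries left out, the log2 fold changes against both controls ran between -0.286 and 0.270 for Tgfb1, -0.214 and 0.163 for Tgfb2, -0.0304 and 0.256 for Tgfbr1, -0.913 and 0.0942 for Ltbp2 and -0.740 and 0.0404 for Ltbp4. Against Mkx-CreER/+ they ran between -0.154 and 0.536 for Tgfb1, -0.130 and 0.246 for Tgfb2, -0.0322 and 0.276 for Tgfbr1, -0.248 and 0.0251 for Tgfbr2, -0.822 and 0.186 for Ltbp2 and -0.639 and 0.141 for Ltbp4. Against Mkx flox/+ they ran between -0.418 and 0.138 for Tgfb1, -0.298 and 0.0804 for Tgfb2, -0.0286 and 0.258 for Tgfbr1 and -1.004 and 0.00286 for Ltbp2, and for Mkx-CreER/+ against Mkx flox/+ between -0.194 and 0.107 for Tgfb3 and -0.139 and 0.0941 for Tgfbr1. The causes of these moves were not tested.

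Tgfb3, Tgfbr2, Tgfbr3, Ltbp1 and Ltbp3 kept a negative sign against both controls in every setting run. TMM and RLE scaling gave medians of all genes within 0.01 of each other. No paired analysis was possible because the columns of Mkx-CreER/+ and Mkx-CreER/flox carry numbers other than the replicate numbers of the labels, so the replicate block was not run. Members had at least 143 counts in a library, and libraries of 1 genotype differed by more than counting error, so the spread between libraries set the precision.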
